A study of Mus musculus with 16 samples.

Results

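The heat shock and DnaJ chaperones were taken as the protein-coding genes whose symbol starts with Hsp90, or with Hspa, Hspb, Hspd, Hspe, Hsph, Dnaja, Dnajb or Dnajc followed by a digit. This rule found 72 of 38933 genes in the cortical bone table and 67 of 21011 genes in the skeletal muscle table, and all 67 muscle members were also in the bone table. The 5 members in the bone table alone were Dnajb3, Dnajb8, Dnajc22, Dnajc5g and Dnajc6. RNA-seq was run on cortical bone shafts and on tibialis anterior muscle of female C57BL/6 mice, with 4 mice per treatment and tissue and 1 library per mouse. Mice were 18 months old at the start and received either BAY (BAY2416964, an antagonist of the aryl hydrocarbon receptor, AhR) at 30 mg/kg or vehicle (VEH: ethanol, Solutol and water) by oral gavage on 5 days per week for 8 weeks. No group carried a transgene or deletion. The bone shafts were what remained after marrow stromal cells had been isolated and were digested with collagenase and frozen before RNA was extracted with TRIzol, while RNA of frozen muscle was extracted with another kit.

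Molecular chaperones bind unfolded stretches of other proteins and help them fold, refold or move through membranes. Hsp70 proteins (Hspa genes) do this in cycles of ATP use that J-domain proteins (Dnaja, Dnajb and Dnajc genes) start and nucleotide exchange factors such as Hsph1 and Hspa4 reset, while Hsp90 proteins act later, on kinases and receptors. Unliganded AhR is held in the cytosol by Hsp90 with the co-chaperone p23 (Ptges3). Skeletal muscle is known for its large stock of small heat shock proteins (Hspb genes), which guard contractile proteins. Some members are made at all times, such as Hspa8 and Hsp90ab1, and others are switched on by heat shock factor 1 (Hsf1) through heat shock elements, such as Hspa1a, Hspa1b, Hsp90aa1 and Hsph1.

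Depth and makeup differed between libraries, more so in bone. Reads counted on genes ranged from 6131907 to 9262347 in muscle and from 930307 in BAY replicate 4 to 6951906 in VEH replicate 1 in bone. Levels are given as CPM, the reads on a gene scaled to the same library total. The median gene stood at 1.98 to 2.68 CPM in muscle but at 0.575 to 14.4 CPM in bone, where olfactory receptor (Olfr) genes took 0.05% of the CPM in VEH replicate 1, 2.92% in VEH replicate 2 and 3.52% in BAY replicate 4. In muscle, VEH replicate 3 stood apart: its column name carries a word for replacement, and its 6 adipocyte markers summed to 326 CPM against 38.3 to 56.3 CPM in the other 7 libraries. Myofibre markers were the most abundant of the marker lists in every muscle library, at a sum of 109397 to 183163 CPM. In bone the 8 osteoblast and osteocyte markers summed to 1430 to 29500 CPM and the 8 myofibre markers to 26.9 to 37307 CPM. In bulk tissue, fewer cells of a type and less RNA per cell cannot be told apart.

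Heat shock elements are arrays of the short unit NGAAN in alternating direction. The RefSeq promoter windows (GRCm38.p6, 250 bases before to 50 after a gene's start) were searched on both strands for GAA and its complement TTC in turn with 2 free bases between them, as 3 units or as 2 (GAANNTTC or TTCNNGAA), and every 3-unit match also holds a 2-unit match. A window was given for 58 of the 72 members. Of these, 4 (6.9%) held 3 units, namely Dnajb6, Hspd1, Hspe1 and Hsph1, against 0.662% of the 27025 genes with a window. Hspd1 and Hspe1 share the matches between their starts, so the 4 members are not independent. The 2-unit form was in 16 of 58 members (27.6%) and in 17.0% of all genes. It was in 6 of the 7 heat inducible cytosolic members with a window and in 0 of the 6 constitutive ones. The 6 include Hspa1a and Hspa1b, which are near copies. Hsp90aa1 of the first list and Hspa8 and Hsp90ab1 of the second had no window. The stretches below are shown because Hsph1, Hspd1 and Dnaja1 were among the 4 members lower in muscle of BAY-treated mice and hold a match, which Dnajb9, the other, does not in its window, and because Hspa1a is the textbook heat-inducible gene, and capitals mark the matches. The Hsph1 stretch is on the minus strand at chr5:149636287-149636316 and its 3-unit match begins 36 bases after the start. Hspe1 and Hspd1 are transcribed away from each other, and the whole 215 bases between their starts are given on the plus strand at chr1:55087933-55088147, where 2 overlapping 3-unit matches cover 18 bases, 72 to 89 bases before the Hspe1 start. Dnaja1 is given on the plus strand at chr4:40722268-40722467, with a 2-unit match, and Hspa1a on the minus strand at chr17:34972157-34972356, with a 2-unit match 97 to 104 bases before its start.
Hsph1: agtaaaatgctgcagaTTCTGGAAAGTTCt
Hspe1 and Hspd1: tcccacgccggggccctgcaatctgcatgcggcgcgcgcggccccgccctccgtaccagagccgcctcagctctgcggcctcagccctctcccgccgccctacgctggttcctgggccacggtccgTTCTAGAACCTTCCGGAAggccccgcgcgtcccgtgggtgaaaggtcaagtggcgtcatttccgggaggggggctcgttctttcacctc
Dnaja1: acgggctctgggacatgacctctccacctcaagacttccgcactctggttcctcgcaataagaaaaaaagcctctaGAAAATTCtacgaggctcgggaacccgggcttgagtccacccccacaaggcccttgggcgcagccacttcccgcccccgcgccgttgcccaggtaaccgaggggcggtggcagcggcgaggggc
Hspa1a: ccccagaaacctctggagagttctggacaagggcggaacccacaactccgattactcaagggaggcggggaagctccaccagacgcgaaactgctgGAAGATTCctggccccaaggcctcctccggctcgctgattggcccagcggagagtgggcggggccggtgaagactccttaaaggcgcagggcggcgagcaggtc
A match describes the letters only and is not evidence of binding. The neighbouring paralogue Hspa1b has the same base as Hspa1a at 199 of the 200 positions of this stretch, and the transcripts are alike too, since 52.7% of the 75-base stretches of the Hspa1a transcript also occur in Hspa1b. Reads of the pair were shared out by the authors' counting, so their sum is the safer value. Of the 75-base stretches of other leading members, 68.0% for Hspa8, 56.8% for Hspb1 and 49.3% for Hsp90aa1 also occur in other genes, so their levels and ratios are uncertain too.

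Per length, Hsp90ab1 led the members in both tissues, followed by Hspb6 and Hspa8 in muscle and by Hspa8 in bone. In VEH-treated muscle, levels as TPM (CPM divided by the length of the main transcript and rescaled to the same total) were 675 ± 162 (SD, n = 4) for Hsp90ab1, the constitutive cytosolic Hsp90, and 292 ± 92.5 for Hspa8, the constitutive cytosolic Hsp70. Small heat shock genes ranked beside them, with 324 ± 128 TPM for Hspb6, 143 ± 38.9 TPM for Hspb8 and 106 ± 74.6 TPM for Hspb7. Hspa9, the mitochondrial Hsp70, stood at 151 ± 42.5 TPM and Dnajb5, a cytosolic J protein, at 93.6 ± 22.2 TPM. Hsp90ab1 alone made up 23.7% ± 1.6 of all member transcripts, while the neighbours Hspb6 and Hspa8, and Hspa9 and Hspb8, did not differ beyond their spread. In VEH-treated bone the order was Hsp90ab1 (308 ± 187 TPM), Hspa8 (268 ± 187), the endoplasmic reticulum Hsp90 Hsp90b1 (177 ± 129), Hspa1a (119 ± 115), Hspa1b (107 ± 104) and Hsp90aa1 (92.3 ± 63.4). The spreads between mice of neighbours in the bone order overlapped, and whether neighbours differed within the same mice was not tested. The heat inducible Hspa1a, high among the bone members, was at 5.52 ± 4.13 TPM in muscle. The tables were normalized separately and the tissues were handled differently, so no test was run between them.

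**Figure D1:**
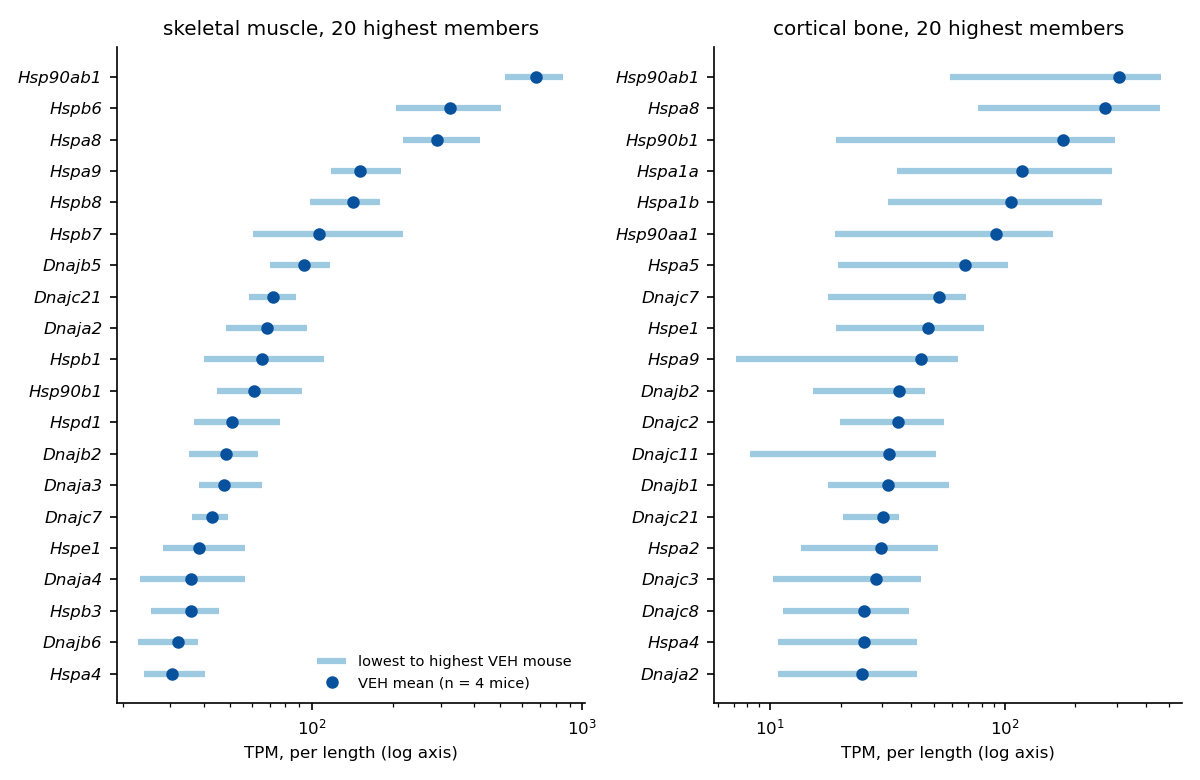
Levels per length of the 20 highest members in VEH-treated mice of each tissue, in TPM on a log axis, with the mean as a point and the lowest to highest of 4 mice as a bar. Hsp90ab1 leads both tissues, small heat shock genes rank high in muscle, and the bars are far wider in bone.

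In skeletal muscle, BAY was compared with VEH to ask whether an AhR antagonist moves the chaperone system. Of 67 members, 6 passed an unadjusted P value under 0.05 in limma, against 9.79% of all genes: Hspb2 and Hspa12b were higher and Hsph1, Hspd1, Dnaja1 and Dnajb9 lower. The share of members called (8.96%) was near that background. It was below the 13.5% of coding genes that averaged 1 CPM or more (9.95% higher and 3.59% lower). By direction, 2 of 67 rose (2.99%, background 6.71%) and 4 of 67 fell (5.97%, background 3.07%). None both passed and changed by a factor of 2 or more, which 2.43% of all genes and 0.892% of those coding genes did. None passed after Benjamini-Hochberg adjustment over all genes (smallest adjusted P = 0.306, limma). The median member had a log2 fold change of -0.08, against 0.06 over all genes, and 25 members had a value above 0 (37.3%, background 55.2%). No filter was applied: all 67 members were fitted, of which 63 had a mean of at least 1 CPM and 62 had at least 3 reads in every library.

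The 4 lower members act at different points of folding. Hsph1 (Hsp110, a nucleotide exchange factor for Hsp70, ENSMUSG00000029657, GRCm39 chr5:149537636-149560156) was at 43.8, 43.5, 83.7 and 39 CPM in VEH and at 37.4, 30.7, 29.9 and 46.6 CPM in BAY. Its groups overlapped through BAY replicate 4, and VEH replicate 3 was far above every other library. Its log2 fold change was -0.49 ± 0.22 (SE; unadjusted P = 0.0438, adjusted P = 0.499, limma). Hspd1 (Hsp60, the mitochondrial chaperonin, GRCm39 chr1:55116989-55171038) was at 44.7, 45.8, 72.8 and 43.8 CPM in VEH and at 43.2, 39.8, 39.2 and 32.9 CPM in BAY. Its groups did not overlap, by the narrow gap between 43.8 and 43.2 CPM, and the change was -0.39 ± 0.17 (unadjusted P = 0.0342, limma; exact permutation P = 0.0286, the smallest that 4 against 4 allows). Its partner Hspe1 (Hsp10), transcribed from the other end of the same promoter, averaged 12.5 ± 3.31 CPM in VEH and 12.4 ± 2.88 CPM in BAY (SD, n = 4), and whether the pair differed in response was not tested. Of the 75-base stretches of the Hspd1 transcript, 33.7% also occur in other genes, mostly in its pseudogene Hspd1-ps3, so the counting could have split its reads.

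Dnaja1 (a farnesylated cytosolic J protein that works with Hspa8, GRCm39 chr4:40722056-40737149) was at 16.5, 14.1, 18.4 and 15.0 CPM in VEH and at 13.6, 11.4, 14.0 and 7.91 CPM in BAY. Every BAY library was below every VEH library, with 14.0 and 14.1 CPM as the nearest values. Its change was -0.48 ± 0.19 (unadjusted P = 0.024, limma; exact permutation P = 0.0286), and 85.3% of its main transcript's exons are overlapped on the opposite strand by Smu1. The libraries were made to keep strand, per the study's methods, but the strand setting of the counting is not given in the sources used here, so the gene is uncertain. Dnajb9 (ERdj4, a J protein of the endoplasmic reticulum and a target of the unfolded protein response, GRCm39 chr12:44252341-44257171) had the largest fall among the called members. It was at 10.7, 9.62, 15.1 and 7.51 CPM in VEH and at 7.57, 6.36, 6.97 and 6.17 CPM in BAY, where 3 of 4 BAY libraries lay below all VEH libraries. The change was -0.62 ± 0.21 (unadjusted P = 0.0103, limma). In the same compartment Hspa5 (BiP), the Hsp70 that Dnajb9 serves, averaged 63 ± 17.1 CPM in VEH and 58.5 ± 1.54 CPM in BAY (log2 fold change -0.07 ± 0.16, unadjusted P = 0.648, limma).

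The higher members were Hspb2 and Hspa12b. Hspb2 (a small heat shock protein of striated muscle that binds the myotonic dystrophy kinase, GRCm39 chr9:50662378-50663858) was at 14.3, 13.7, 13.3 and 10.4 CPM in VEH and at 16.9, 15.8, 15.3 and 18.4 CPM in BAY. Every BAY library was above every VEH library, with a change of 0.37 ± 0.15 (unadjusted P = 0.0269, limma; exact permutation P = 0.0286). Hspa12b (a distant Hsp70 relative known from endothelial cells, GRCm39 chr2:130969200-130994065) was at 7.22, 10.5, 9.28 and 14.0 CPM in VEH and at 17.8, 19.2, 20.4 and 12.1 CPM in BAY. BAY replicate 4 fell inside the VEH range and the other BAY libraries stood above it, and the change was 0.78 ± 0.22 (unadjusted P = 0.00322, adjusted P = 0.306, limma). With Hspd1, Dnaja1 and Hspb2, 3 of 67 members had no overlap between groups, against 5.73% of all genes.

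**Figure D2:**
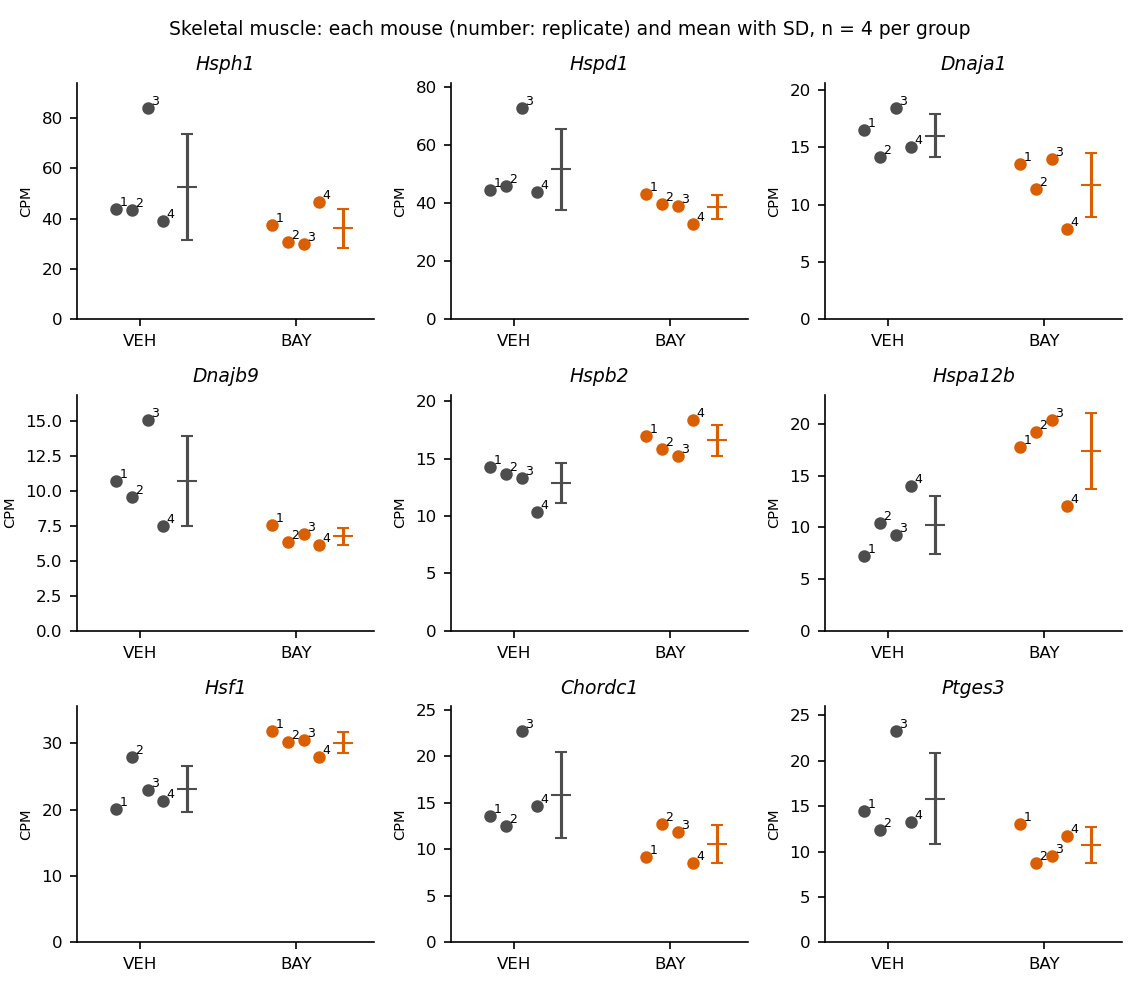
CPM of each mouse in skeletal muscle for the 6 called members and for Hsf1, Chordc1 and Ptges3, with the group mean and SD beside the points (n = 4 per group) and the replicate number beside each point. VEH replicate 3 is the highest point for Hsph1 (83.7 CPM), Hspd1 (72.8 CPM), Dnajb9 (15.1 CPM), Chordc1 (22.7 CPM) and Ptges3 (23.2 CPM).

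VEH replicate 3 was the highest of the 8 muscle libraries for 36 of 67 members (53.7%), against 26.9% of all genes and 38.2% of the coding genes that averaged 1 CPM or more. This held for 7 of 8 heat inducible cytosolic members, 7 of 8 endoplasmic reticulum members, 8 of 10 mitochondrial members, 3 of 8 constitutive cytosolic members, 3 of 6 small heat shock members and 2 of 3 J proteins of clathrin and vesicles. Members summed to 0.44% of its CPM and to 0.29% to 0.33% in the other libraries. Hspb7, a cardiac and skeletal muscle small heat shock protein, was at 237 CPM there and at 80.6 to 87.1 CPM in the other VEH libraries, and at 91.9, 139, 160 and 97.0 CPM in BAY. Without that library, 4 members were higher (Dnajc27, Hspa12b, Hspb2 and Hspb7) and 1, Dnajb9, was lower, against 8.15% and 1.65% of all genes, and the members with a fitted value below 0 went from 42 to 31 of 67. The log2 fold change then stood at -0.24 for Hsph1 (unadjusted P = 0.143, limma), -0.21 for Hspd1 (unadjusted P = 0.0881) and -0.41 for Dnaja1 (unadjusted P = 0.0587), and none of these passed. Leaving out VEH replicate 4 instead gave 1 higher and 9 lower members (5.81% and 3.84% of all genes), and leaving out BAY replicate 4 gave 1 higher and 2 lower (6.2% and 2.2%). Hspa12b and Dnajb9 passed whichever single library was left out, while Hsph1, Hspd1, Dnaja1 and Hspb2 each failed in 3 or 4 of the 8 cases. Adipocyte markers moved with VEH replicate 3, as did Col1a1 (86.4 CPM against 12.3 to 25.1 CPM in the other libraries), and their part in the result was not tested.

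By compartment, the fitted values of most intracellular lists lay below 0 in muscle and few members passed, against 55.2% of all genes above 0, 6.71% higher and 3.07% lower. Of 8 heat inducible cytosolic members, 7 had a negative value and 1 (Hsph1) fell, with a list median of -0.13. Without VEH replicate 3, 6 of these 8 had a positive value, none passed, and the median was 0.10, near the 0.12 of all genes under that removal. Of 8 constitutive cytosolic members, 5 had a negative value and none passed (median -0.15), with Hspa8 at 294 ± 68.8 CPM in VEH and 235 ± 20.1 CPM in BAY (unadjusted P = 0.081, limma) and Hsp90ab1 at 769 ± 100 and 734 ± 170 CPM. The endoplasmic reticulum list had a median of -0.15 with 1 of 8 lower, and the mitochondrial list a median of -0.16 with 9 of 10 values below 0 and 1 lower. Without VEH replicate 3 these medians were -0.04 for the constitutive, 0.01 for the endoplasmic reticulum and -0.04 for the mitochondrial list. Small heat shock genes had a median of 0.11, with 4 of 6 values above 0 and 1 higher, and a median of 0.27 without that library. Another scaling changed the count. Centring each library on the median of the genes that averaged 1 CPM or more moved the median of all genes from 0.06 to 0.004. Then 1 member rose and 15 fell, against 5.71% and 5.91% of all genes. Quantile normalization gave 2 higher and 15 lower, against 5.91% and 6.14% of all genes. The added lower members under centring included Hspa8, Hsp90aa1, Hspa4, Hspa4l, Hspa14, Dnaja2 and Hspb8, and all 4 lower members of the unscaled values were among the 15.

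**Figure D3:**
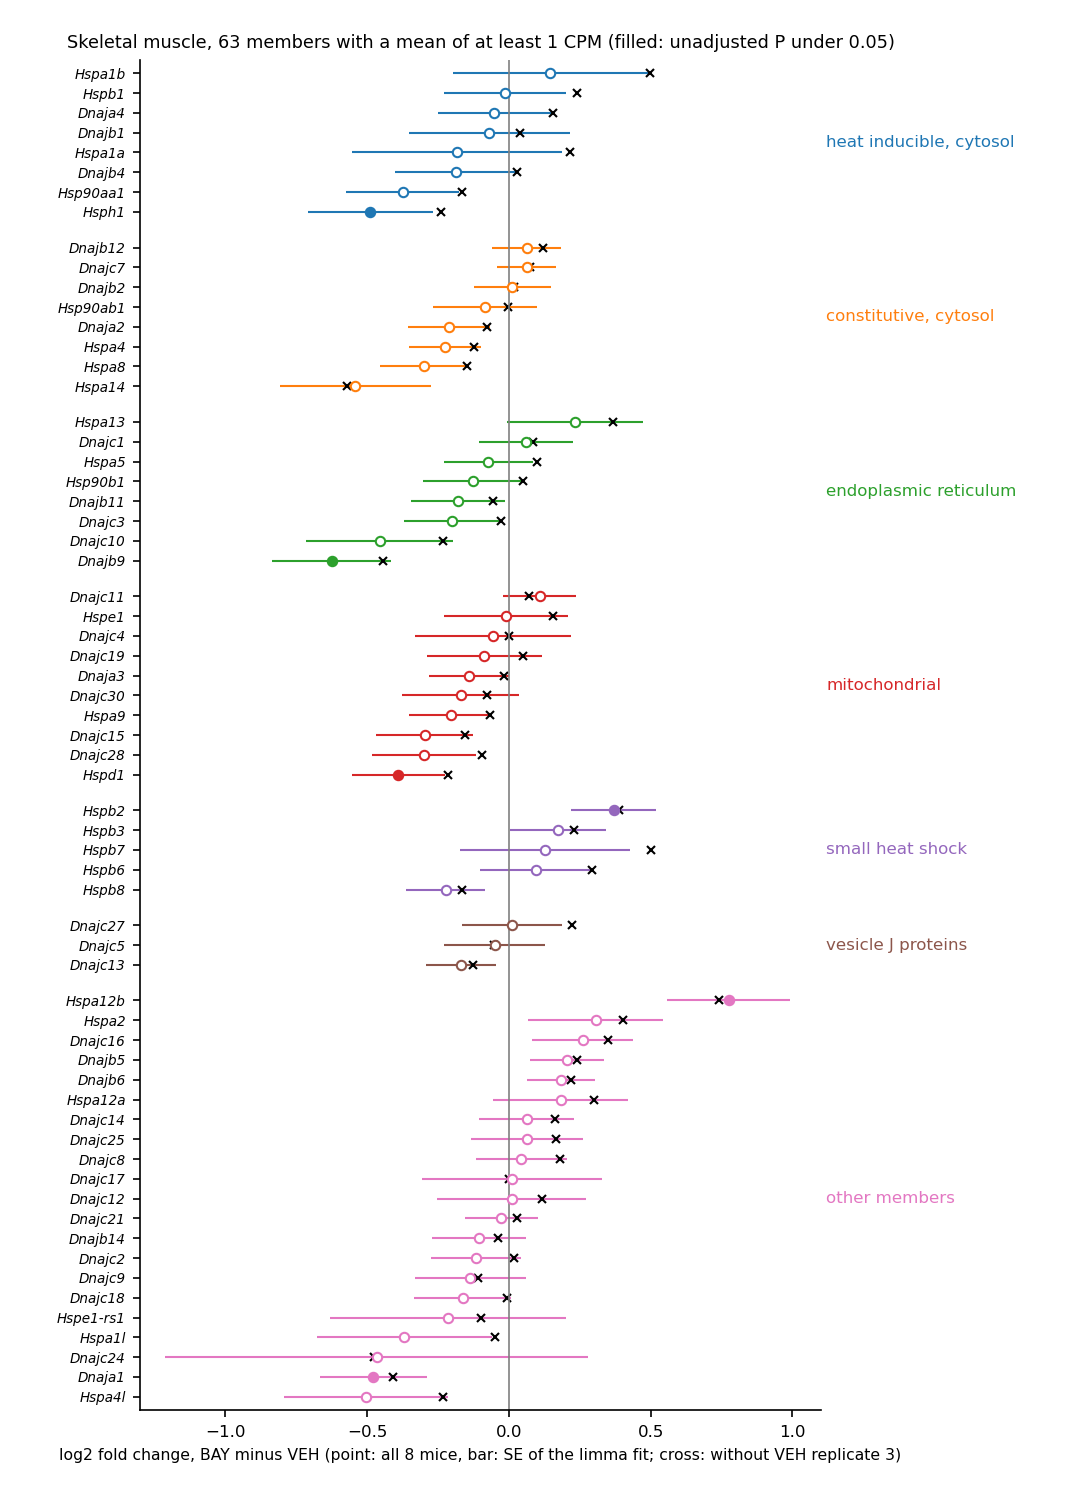
Log2 fold changes of the 63 muscle members with a mean of at least 1 CPM, grouped by list, as BAY minus VEH with the SE of the limma fit. Filled points have an unadjusted P under 0.05 and crosses give the value without VEH replicate 3, which lies to the right of the point for most members of the cytosolic, endoplasmic reticulum and mitochondrial lists.

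Relative to constitutive members, inducible members had the same mean level in both muscle groups over all 8 libraries, and this rested on VEH replicate 3. The mean log2 level of the 8 heat inducible cytosolic members minus that of the 8 constitutive ones was -2.19, -2.31, -1.50 and -2.22 in VEH and -2.03, -2.04, -1.97 and -2.18 in BAY, a mean of -2.06 in both groups. The groups overlapped, with VEH replicate 3 the highest of all 8. Without that library, every BAY value (-2.18 to -1.97) lay above every VEH value (-2.31 to -2.19), with a difference of 0.19. Paralogue pairs differed in sign. Hspa1a plus Hspa1b over Hspa8 had a log2 ratio of -4.88 ± 0.46 in VEH and -4.63 ± 0.35 in BAY (SD, n = 4), Hsp90aa1 over Hsp90ab1 one of -4.82 ± 0.28 and -5.11 ± 0.33, Hsph1 over Hspa4 one of -0.32 ± 0.30 and -0.58 ± 0.21, and Dnajb1 over Dnajb2 one of -2.83 ± 0.40 and -2.91 ± 0.28. All 4 pairs overlapped between groups over all libraries, and without VEH replicate 3 the Hspa1a plus Hspa1b pair no longer did (difference 0.48, higher in BAY). No other single removal separated the groups for the list difference or for any pair, and these separations were not tested. Of the single inducible genes, Hspa1a was at 4.00, 4.71, 13.6 and 4.71 CPM in VEH and at 5.59, 5.18, 7.89 and 3.16 CPM in BAY, and Hspa1b at 3.65, 2.95, 7.99 and 2.51 CPM and at 3.63, 4.02, 6.13 and 3.61 CPM. Apart from VEH replicate 3, both ran at a few CPM in every library. Hsp90aa1, the inducible Hsp90, was at 23.9, 22.6, 41.8 and 23.6 CPM in VEH and at 17.9, 26.5, 18.6 and 21.4 CPM in BAY (log2 fold change -0.37 ± 0.20, unadjusted P = 0.0817, limma).

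Among the regulators and partners in muscle, Hsf1, the transcription factor of the heat shock response, rose, as 1 of 4 genes in the list of heat shock factors (background 6.71%). It was at 20, 27.9, 23.0 and 21.2 CPM in VEH and at 31.8, 30.2, 30.4 and 27.9 CPM in BAY, so the groups did not overlap though the nearest libraries were alike at 27.9 CPM. The log2 fold change was 0.39 ± 0.13 (unadjusted P = 0.0104, adjusted P = 0.366, limma; exact permutation P = 0.0286). The others of the list had values of -0.13 (Hsf2), -0.14 (Hsbp1) and 0.27 (Hsf4) and did not pass. Of the 20 co-chaperones of Hsp90 and Hsp70, none rose (background 6.71%) and 2 fell (background 3.07%), while 12 had a value above 0 and the list median was 0.05. Without VEH replicate 3, 1 fell, 14 had a value above 0 and the median was 0.14, against a median of 0.12 and 1.65% lower over all genes. Over all libraries the 2 that fell were Chordc1, a zinc-binding Hsp90 co-chaperone, by 0.56 on the log2 scale (unadjusted P = 0.0157) and Ptges3 by 0.53 (unadjusted P = 0.0231, both limma). Both overlapped between groups and were highest in VEH replicate 3. Bag1, a nucleotide exchange factor of Hsp70, was the 1 of 20 without overlap (5.73% of all genes), at 78.4 to 89.8 CPM in VEH and 92.7 to 150.2 CPM in BAY, and did not pass (unadjusted P = 0.0619, limma). Ahr itself was at 1.81 to 4.31 CPM in VEH and 2.10 to 3.74 CPM in BAY and did not pass. Bag3 (with Hspb8 part of the machinery for clearing damaged contractile proteins) was at 85.8 to 135 CPM in VEH and 103 to 113 CPM in BAY, and Cryab, the small heat shock protein alpha B crystallin, at 154 to 270.9 and 139 to 180 CPM, with neither called. Of the 8 subunits of the cytosolic chaperonin CCT, all had values below 0 (median -0.21) and 1, Tcp1, fell (by 0.45, unadjusted P = 0.0181, limma), against 3.07% of all genes. VEH replicate 3 was the highest library for all 8 subunits, and without it 7 of 8 values were below 0 with a median of -0.11. The AhR target Cyp1a1 fell by 1.38 (unadjusted P = 0.0279, limma), from 1.05 to 1.67 CPM in VEH to 0.28 to 0.645 CPM in BAY, with no overlap, though the lowest value is 2 reads, under the floor of 3. The AhR targets Tiparp (-0.35) and Nqo1 (0.09) did not pass. The 7 immediate-early genes (Fos, Jun and others) summed to 96.7 to 110 CPM in VEH and 144 to 180 CPM in BAY with no overlap, mostly through Jun (75.9 to 96.2 and 118 to 146 CPM), while their mean log2 level overlapped (0.15 to 2.30 and 2.24 to 3.29). The 8 heat inducible members summed to 150 to 300 CPM and 155 to 174 CPM.

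In cortical bone, no member was called. Of 72 members, 0 passed an unadjusted P value under 0.05 in limma on the deposited values and 1 did with voom on the recovered reads (Dnajc15), against 0.64% of all genes in limma (0.545% higher and 0.095% lower) and 3.68% with voom. The smallest unadjusted P among members was 0.1 (Hspb9) and the smallest adjusted P 0.887. No member was free of overlap between groups, against 0.406% of all genes. The median log2 fold change of members was 0.34, but that of all genes was 0.84, and this order turned without VEH replicate 1, where the members' median was -0.05 and that of all genes -0.09. Centring each library on the median of the genes that averaged 1 CPM or more brought the median of all genes to -0.01 and that of the members to -0.51. It gave 17 values above 0 and 55 below in place of 54 and 18 (75% above 0, background 80.9%). Centring moves every gene by the same amount, and quantile normalization gave 31 values above 0 and 41 below, so levels within libraries are given first and signs depend on the scaling. Leaving out VEH replicate 2 gave 4 members higher (Dnajc15, Dnajc27, Hspa1l and Hspb9; 2.72% of all genes), and leaving out VEH replicate 1 gave 1 (Hspb6; 0.539% of all genes). All 72 members had a mean of at least 1 CPM, but 12 were under 3 reads in at least 1 library, where 3 reads are worth 0.432 to 3.22 CPM (counting error only).

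The heat inducible cytosolic members differed more between bone libraries than between treatments. Their 8 values summed to 373, 290, 923 and 522 CPM in VEH and to 309, 309, 680 and 305 CPM in BAY. VEH replicates 3 and 4 and BAY replicate 3 were high and the groups overlapped. Hspa1a was at 87.7, 46.9, 300.0 and 104 CPM in VEH and at 75.7, 71.0, 189 and 44.1 CPM in BAY. Hsp90aa1 was at 104, 30.4, 200 and 175 CPM in VEH and at 46.2, 33.8, 200 and 30.3 CPM in BAY. Dnajb1, the J protein of the inducible Hsp70, was at 30.9, 28.5, 71.9 and 46.6 CPM and at 17.0, 15.3, 51.9 and 47.3 CPM. The 7 immediate-early genes, which answer to cell stimulation and also to tissue handling, summed to 1217, 417, 6490 and 2314 CPM in VEH and to 957, 834, 3768 and 457 CPM in BAY. By summed CPM the order of the 8 libraries was identical for the 2 lists, though 3 BAY libraries were nearly tied in the inducible sum. By mean log2 level only 4 of 8 libraries held the same place, with VEH replicate 3, BAY replicate 3 and VEH replicate 4 the highest of both lists in that order. In muscle, 0 of 8 libraries held the same place by summed CPM and 2 of 8 by mean log2 level. The order was noticed after the values were seen, and the part of handling or of cell makeup in it was not tested.

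Endoplasmic reticulum members were high in the bone libraries with high osteoblast and osteocyte markers. Hsp90b1 (Grp94) was at 163, 24.7, 266 and 330 CPM in VEH and at 72.0, 60.8, 367 and 74.9 CPM in BAY, and Hspa5 at 113, 44.2, 172 and 202 CPM and at 61.7, 79.4, 227 and 78.5 CPM. VEH replicates 3 and 4 and BAY replicate 3 were again the highest, and these were the libraries whose osteoblast and osteocyte markers summed to 29500, 22060 and 21776 CPM against 1430 to 7148 CPM in the other 5. The same 3 libraries were the highest in the 6 neutrophil markers (358 to 1483 CPM against 46.5 to 162 CPM) and in the constitutive cytosolic members (999 to 1222 CPM against 317 to 679 CPM), and the part of either cell type was not tested. The whole endoplasmic reticulum list summed to 627 to 830 CPM in these libraries and to 254 to 378 CPM in the others. By summed CPM only 1 of 8 libraries held the same place in this list and the osteoblast and osteocyte markers. By mean log2 level it was 3 of 8. Small heat shock genes showed another order. Hspb6 was at 60.7, 24.9, 7.09 and 12.4 CPM in VEH and at 139, 162, 15.3 and 20.4 CPM in BAY, and Hspb7 at 48.5, 19.3, 11.7 and 11.6 CPM and at 102, 76.5, 10.2 and 11.8 CPM. Their 3 highest libraries, BAY replicates 1 and 2 and VEH replicate 1, were also the 3 highest in myofibre markers, at 33984, 37307 and 7804 CPM. By mean log2 level over all 6 small heat shock genes, BAY replicates 2 and 1 were again the highest but VEH replicate 1 was not next, and 2 of 8 libraries held the same place as for the myofibre markers. The log2 fold change of Hspb6 was 1.43 ± 0.92 (unadjusted P = 0.142, limma). All 6 small heat shock genes had a value above 0 (median 1.05), as had all 8 myofibre markers (median 3.56) and 80.9% of all genes (median 0.84). Under median centring Hspb1 (-0.10) and Hspb7 (-0.13) turned negative. With array weights, Hspb1, Hspb6, Hspb7 and Hspb8 were called higher (log2 fold changes of 1.584 to 2.697, limma). Hspb2 and Hspb3 were not called there. That setting called 3.4% of all genes higher and 16.2% lower, and VEH replicate 1 had a weight of 0.0447. The smallest adjusted P of any member under it was 0.0731 (limma). The part of muscle tissue on the bone in these results was not tested.

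**Figure D4:**
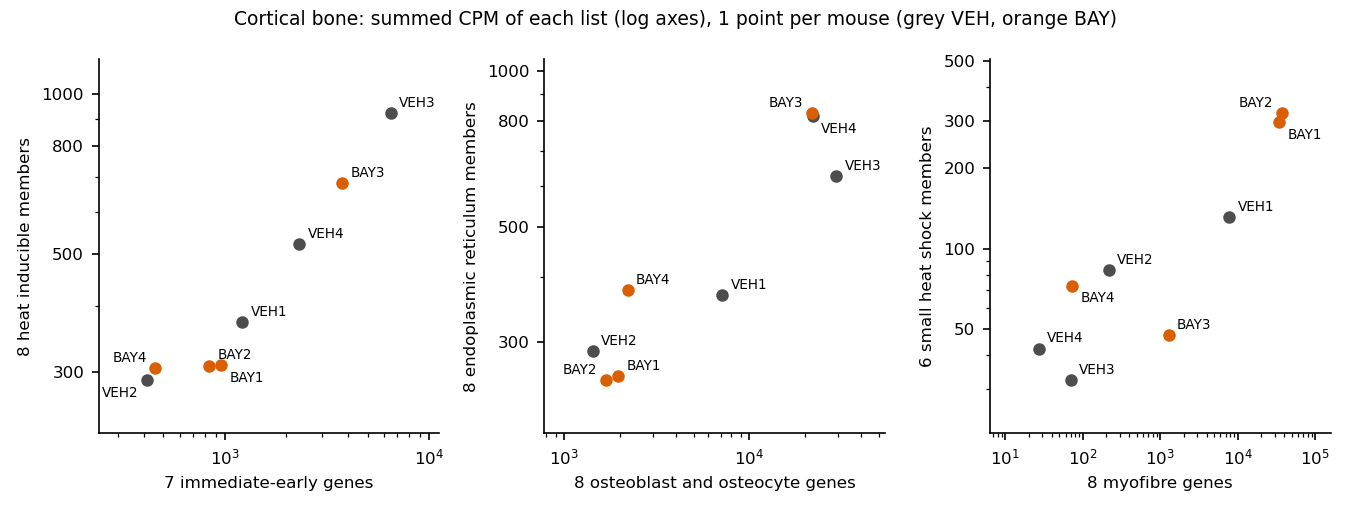
Summed CPM of 3 member lists against 3 marker lists in the 8 cortical bone libraries, on log axes, each point 1 mouse (grey VEH, orange BAY). VEH replicate 3 (923 and 6490 CPM), BAY replicate 3 (680 and 3768 CPM) and VEH replicate 4 (522 and 2314 CPM) are the highest for both the heat inducible members and the immediate-early genes, and the other 5 libraries lie close together in the inducible sum.

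Inducible against constitutive levels overlapped between treatments in bone too. The mean log2 level of the inducible minus that of the constitutive list was 0.05, -0.02, 0.30 and -0.81 in VEH and -0.38, -0.33, -0.28 and -0.36 in BAY, a difference of -0.22. The BAY libraries lay close together inside a VEH range whose low end was VEH replicate 4 alone. Without it, every VEH value (-0.02 to 0.30) lay above every BAY value and the difference was -0.45. Hspa1a plus Hspa1b over Hspa8 had a log2 ratio of -0.08 ± 0.68 in VEH and -0.29 ± 0.18 in BAY (SD, n = 4), and without VEH replicate 4 its groups did not overlap either (difference -0.53). Hsp90aa1 over Hsp90ab1 was at -1.72, -1.24, -1.14 and -1.41 in VEH and at -2.77, -3.32, -1.52 and -1.87 in BAY. Here 3 of 4 BAY libraries lay below all VEH libraries, and without VEH replicate 1 or without BAY replicate 3 the groups no longer overlapped (differences of -1.11 and -1.28). Apart from the removals named here, every single removal left overlap for the list difference and the pairs. These separations were not tested. In the BAY group the lowest values were those of BAY replicates 1 and 2, which were rich in myofibre markers, and in the muscle libraries this ratio was -5.51 to -4.44. The part of muscle tissue in it was not tested. Against muscle, the VEH ratios in bone were higher by several log2 units for both pairs. Tissue, collagenase digestion and RNA extraction differed together between the tables and cannot be told apart.

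**Figure D5:**
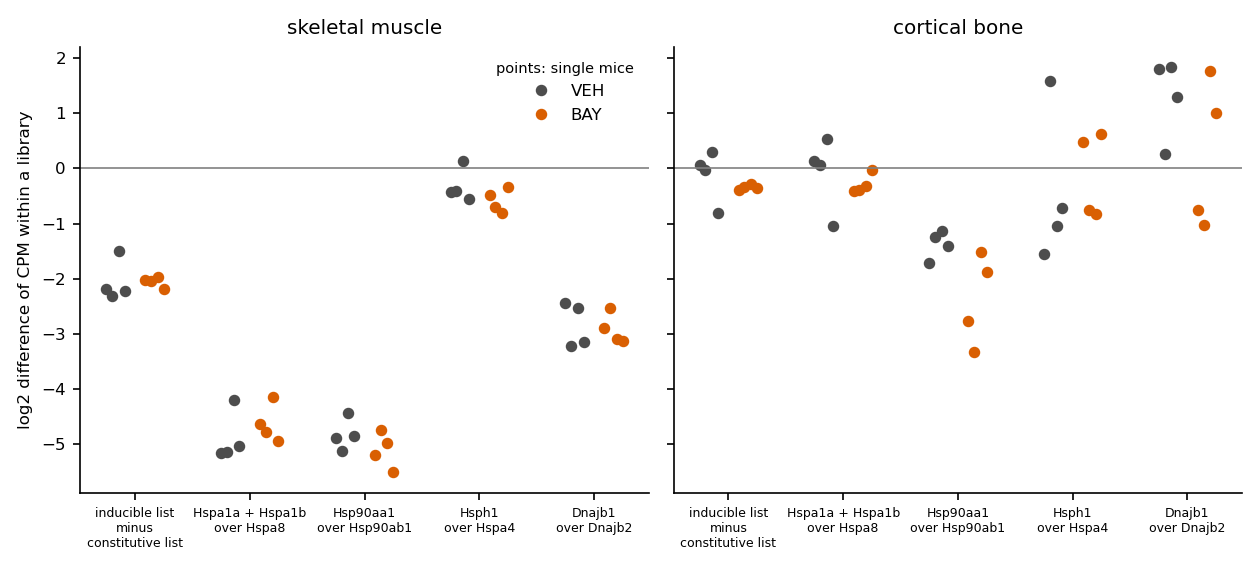
Log2 differences within each library between the heat inducible and the constitutive cytosolic lists and for 4 paralogue pairs, for skeletal muscle (left) and cortical bone (right), each point 1 mouse. VEH and BAY overlap in every column, and the Hspa1a plus Hspa1b and Hsp90aa1 columns lie far lower in muscle (-4.88 and -4.82 in VEH) than in bone (-0.08 and -1.38 in VEH).

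Members with few reads had the largest fitted changes in bone, and none passed on the deposited values. Dnajc24, which takes part in diphthamide synthesis, was at 0.575, 1.84, 2.83 and 1.46 CPM in VEH and at 0.447, 0.827, 0.509 and 0 CPM in BAY, and Dnajc4 at 3.17, 4.6, 4.96 and 5.82 CPM and at 0.447, 1.24, 2.55 and 4.3 CPM. Dnajc4 was the member called lower with median centring (unadjusted P = 0.0448) and quantile normalization (unadjusted P = 0.0188), and with array weights as well (unadjusted P = 0.00395, all limma). These settings called 0.419%, 1.19% and 16.2% of all genes lower. Hspb9, a testis small heat shock gene, was at 0, 0.921, 0.354 and 0 CPM in VEH and at 3.58, 0.414, 2.04 and 3.22 CPM in BAY, and all of its exons (100%) are overlapped on the opposite strand by Rab5c. It was called higher with array weights and without VEH replicate 2. The groups overlapped for all of them. Dnajb7 was at 0, 17.5, 2.48 and 8.74 CPM in VEH and at 5.81, 8.27, 7.13 and 31.2 CPM in BAY, and Dnajb13, a sperm flagellum J protein, at 0.575, 11, 2.83 and 13.8 CPM and at 4.47, 7.03, 4.10 and 20.4 CPM. Both were highest in BAY replicate 4 and lowest in VEH replicate 1, the libraries with the highest and lowest median gene level (14.4 and 0.575 CPM) and Olfr share. In muscle Dnajb7, Dnajb13 and Hspb9 reached at most 4 reads in any library, and their fold changes are not given. VEH replicate 1 was the lowest of the bone libraries for 41 of 72 members (56.9%), against 82.9% of all genes.

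The 6 members called in muscle were not called in bone on the deposited values. With array weights, which called 19.6% of all genes in bone, Dnaja1 was lower there (log2 fold change -1.07, unadjusted P = 0.0103, limma). Hsph1 was at 12.8, 71.8, 25.5 and 49.5 CPM in VEH bone and at 46.5, 23.2, 43.3 and 61.3 CPM in BAY bone (log2 fold change 0.32 ± 0.65, limma). Hspd1 was at 12.8, 3.68, 20.6 and 38.6 CPM and at 17.7, 23.5, 34.2 and 13.4 CPM (0.59 ± 0.79), and Dnaja1 at 19.1, 46.9, 53.8 and 73.3 CPM and at 25.7, 25.2, 63.6 and 58.5 CPM (-0.14 ± 0.62). Dnajb9 had a log2 fold change of -0.18 ± 0.79, Hspb2 of 0.86 ± 1.34 and Hspa12b of 0.48 ± 0.74. The SEs of these 6 ran from 0.62 to 1.34 in bone and from 0.15 to 0.22 in muscle, so changes of the size seen in muscle were not detectable there, and a difference between the tissues was not tested. Hsf1 in bone was at 15.4, 72.7, 22.7 and 40 CPM in VEH and at 57.2, 39.7, 35.1 and 44.1 CPM in BAY, with overlap.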

How the data were processed

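The deposited values were log2(CPM + offset) per gene and library, made by the authors: reads were aligned with STAR 2.7.8a to mm39 and quantified in Partek, per the labels and the study's methods, scaled to CPM, given an offset of 0.0001 (bone) or 0.0004 (muscle) and log2 transformed, each tissue on its own. Libraries kept strand (dUTP), but the strand setting of the counting is not given in the sources used here. The offset was removed, and 81.3% to 88.4% of values up to 50 reads were whole reads within 0.02. BAY was compared with VEH per tissue by limma 3.58.1 (R 4.3.3) with an intensity trend on the deposited values of all genes. A call was an unadjusted P under 0.05, as the study used together with a fold change of 2, and Benjamini-Hochberg adjusted values are given. Single values also had an exact two-sided permutation test. The fit was tested on simulated data. The 4 mice per group were separate animals. Lengths came from GENCODE M39 (GRCm39; 98.9% of bone and 99.4% of muscle genes matched) and promoters from RefSeq (GRCm38.p6). Python 3.11.15, pandas 2.3.3, scipy 1.17.1 and matplotlib 3.10.9 were used. Named genes were every called or non-overlapping member, the 3 largest changes each way per tissue above a mean of 1 CPM, the inducible, constitutive and small heat shock lists, Hspa5, Hsp90b1, Hspa9, Hspd1 and Hspe1, and partners fixed or called. Bag1, Dnajb5, Dnajb13, Dnajc15, Dnajc27, Hspa1l, Hsf2, Hsbp1, Hsf4, Tiparp and Nqo1 were named after their values were seen. Members and lists were chosen with earlier results of these data known. Alternatives were other pseudocounts, a filter at 1 CPM, median centring, quantile normalization, voom on recovered reads, array weights, a replicate block and leaving out libraries. A partner gene of that rule is not reported here.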

Additional observations from a re-analysis of the deposited data

Results flagged for a closer look

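In skeletal muscle, VEH replicate 3 lay far above the other 3 VEH libraries for 7 members. Hsp90aa1 was at 41.8 CPM there and at 22.6 to 23.9 CPM in the others. Hspa1a was at 13.6 CPM there and at 4 to 4.71 CPM in the others. Hspa4 was at 76.8 CPM there and at 57.1 to 58.7 CPM in the others. Hspa4l was at 10.6 CPM there and at 4.88 to 5.13 CPM in the others. Hspb7 was at 237 CPM there and at 80.6 to 87.1 CPM in the others. Hspd1 was at 72.8 CPM there and at 43.8 to 45.8 CPM in the others. Hsph1 was at 83.7 CPM there and at 39 to 43.8 CPM in the others. These were 7 of 62 groups looked at (11.3%). A nominal rate of about 1 in 20 holds only for independent groups not picked by their values. Here some genes were named by their values, and all 7 groups had the same distant library. VEH replicate 3 was also the highest VEH library for 42.8% of all genes, and how often it lay far apart among them was not counted. Adipocyte markers, at 326 CPM in that library against 38.3 to 56.3 CPM elsewhere, moved with it, and their part was not tested.

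In cortical bone, 6 of 62 groups looked at (9.68%) had 1 library far from the other 3 on the log2 scale. The nominal rate of about 1 in 20 does not apply here either, since some genes were named by their values. Dnajb7 was at 0 CPM in VEH replicate 1 and at 2.48 to 17.5 CPM in the others. Dnajc22 was at 0 CPM in VEH replicate 1 and at 2.48 to 8.29 CPM in the others. Dnajc24 was at 0 CPM in BAY replicate 4 and at 0.447 to 0.827 CPM in the others. Hsp90ab1 was at 71.8 CPM in VEH replicate 2 and at 345 to 466 CPM in the others. Hsp90b1 was at 367 CPM in BAY replicate 3 and at 60.8 to 74.9 CPM in the others. Hspa9 was at 11 CPM in VEH replicate 2 and at 75.5 to 76.7 CPM in the others. For Dnajb7, Dnajc22 and Dnajc24 the distance comes from the log2 of a value listed at 0, and in BAY replicate 4 a single read is worth 1.07 CPM, above the other Dnajc24 values. The bone libraries also differed in depth, from 930307 to 6951906 reads, and the part of depth in these values was not tested.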

How the results depend on the processing

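No count rested on an adjusted P, since none passed under any setting. In muscle the 6 calls (2 higher, 4 lower) became 16 (1 and 15) with median centring and 17 (2 and 15) with quantile normalization. Array weights left 2 lower, against 2.37% of all genes. Leaving out single libraries gave 3 to 10 calls, 1 to 4 higher, 1 to 9 lower and 0 to 1 past a fold change of 2, with a median of -0.16 to 0.02. In bone the 0 calls became 1 (lower) with median centring and with quantile normalization, against 0.419% and 1.19% of all genes lower. With voom there was 1 (higher), against 3.68% of all genes higher. Array weights gave 20 (7 higher, 13 lower, 17 past a fold change of 2). There 19.6% of all genes were called (3.4% higher and 16.2% lower) and VEH replicate 1 had a weight of 0.0447. The single calls under centring, quantile normalization and voom were past a fold change of 2 as well. The bone median of 0.34 moved to -0.51 with centring and -0.39 with array weights, and leaving out single libraries gave 0 to 4 calls, 0 to 4 of them higher, 0 to 4 past a fold change of 2 and a median of -0.05 to 0.54. Members with a heat shock element went from 4 to 16 when 2 units were enough. The cause of these shifts was not tested. Replicate numbers did not pair the mice: deviations of same-numbered libraries correlated at -0.0885 to 0.0075 in muscle and at -0.109 to 0.188 in bone. With the replicate number as a block, muscle had 4 calls (1 higher, 3 lower; 5.36% and 3.1% of all genes) and bone 1 (Hspb6, higher and past a fold change of 2; 0.783% of all genes called). The sign of the log2 fold change turned under array weights in bone for Dnajb4 -0.55, Dnajb7 -0.088, Dnajc22 -0.11, Dnajc7 -0.67, Hsp90ab1 -0.11, Hspa14 -0.44, Hspa4 -0.68, Hspd1 -0.32, Hspe1 -0.90 and Hsph1 -0.39, and in muscle for Dnaja4 0.020, Dnajb1 0.040, Hspa1a 0.13, Hspa5 0.016, Hspb1 0.14 and Hspe1 0.075. The sign of the log2 fold change turned under the joint removal of VEH replicate 2 and BAY replicate 4, added after seeing the data, in bone for Dnajb12 0.20, Dnajb4 -0.037, Hsp90ab1 -0.069 and Hspa4 -0.22. The sign of the log2 fold change turned under median centring in bone for Dnaja2 -0.28, Dnajb2 -0.36, Dnajb4 -0.75, Dnajc7 -0.71, Hsp90ab1 -0.75, Hspa14 -0.50, Hspa4 -0.84, Hspa9 -0.19, Hspb1 -0.10, Hspb7 -0.13, Hspd1 -0.26, Hspe1 -0.83 and Hsph1 -0.53, and in muscle for Dnajb2 -0.041. The sign of the log2 fold change turned under quantile normalization in bone for Dnajb4 -0.042, Dnajc22 -0.31, Dnajc7 -0.085, Hspa14 -0.077, Hspa4 -0.093, Hspe1 -0.49 and Hsph1 -0.0012, and in muscle for Dnajb2 -0.023. The sign of the log2 fold change turned under voom on recovered reads in bone for Dnajb12 0.26. Leaving out single libraries turned the sign for 14 named members in muscle, with ranges of Dnaja4 -0.17 to 0.16, Dnajb1 -0.25 to 0.072, Dnajb12 -0.0015 to 0.12, Dnajb2 -0.053 to 0.091, Dnajb4 -0.29 to 0.029, Hsp90ab1 -0.23 to 0.014, Hsp90b1 -0.23 to 0.050, Hspa1a -0.39 to 0.22, Hspa1b -0.059 to 0.50, Hspa5 -0.17 to 0.10, Hspb1 -0.18 to 0.24, Hspb6 -0.021 to 0.29, Hspb7 -0.018 to 0.50 and Hspe1 -0.11 to 0.17. Leaving out single libraries turned the sign for 14 named members in bone, with ranges of Dnajb12 -0.39 to 0.29, Dnajb4 -0.22 to 0.26, Dnajc22 -0.32 to 5.13, Dnajc7 -0.27 to 0.43, Hsp90ab1 -0.53 to 0.56, Hsp90b1 -1.21 to 0.036, Hspa1a -0.78 to 0.12, Hspa4 -0.28 to 0.31, Hspa5 -0.71 to 0.024, Hspa8 -0.73 to 0.091, Hspa9 -0.030 to 1.05, Hspd1 -0.051 to 1.08, Hspe1 -0.29 to 0.33 and Hsph1 -0.13 to 0.70. The bone libraries, with 930307 to 6951906 reads, limit what could be seen there, and 12 of 72 members were under 3 reads in some library.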
